A study of Mus musculus with 2 samples.

Results

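The 10 genes described here, of 25430 distinct names in the table, encode the core of the G1 restriction machinery: the CDK inhibitors Cdkn1a, Cdkn1b, Cdkn2a, Cdkn2b, Cdkn2c and Cdkn2d, the kinases Cdk4 and Cdk6 that they act on, the retinoblastoma gene Rb1 and the Polycomb gene Bmi1. They are a set of named genes of 1 pathway, picked with earlier results of these data known. Each name had 1 row in the table. RNA was sequenced from primary mouse embryonic fibroblasts, connective tissue cells grown from embryos at stage E13.5 of Sptbn1+/- parents. The labels name 1 wild-type library and 1 Sptbn1 knockout library, given as homozygous in the series' title. Sptbn1 encodes beta-2 spectrin (β2SP), a membrane skeleton protein described in the literature as an adaptor of SMAD proteins in TGF-β signalling. Both cultures were kept in DMEM/F12 medium with 10% fetal bovine serum and were replated after reaching confluence. The number of passages, and whether a library came from 1 embryo or several, were not given in the sources used here. Each genotype had 1 library, so the variation between cultures is unknown and every comparison is between 2 libraries.

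D-type cyclins bind CDK4 and CDK6, and the active kinases phosphorylate RB1, which then releases E2F transcription factors and lets the cell enter S phase. INK4 proteins (p16 from Cdkn2a, and the products of Cdkn2b, Cdkn2c and Cdkn2d) bind CDK4 and CDK6 and keep cyclin D away. The Cip/Kip proteins p21 (Cdkn1a) and p27 (Cdkn1b) instead bind cyclin-CDK complexes and chiefly restrain CDK2. Fibroblasts from mouse embryos are known to accumulate the 2 products of Cdkn2a, p16 and ARF, as they are passaged, and BMI1 represses that locus. TGF-β is known to induce Cdkn2b and Cdkn1a in many epithelial cells.

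Levels are FPKM, fragment counts divided by transcript length and library size, so genes may be set side by side within a library. Ratios are log2((knockout FPKM + 1)/(wild-type FPKM + 1)), negative where the knockout library was lower. Genes averaging at least 1 FPKM over both libraries are called measured here, a limit passed by 11070 genes and by 8 of the 10 members. Sptbn1 itself was listed at 69.6 FPKM in wild type and 36.6 FPKM in knockout, a log2 ratio of -0.91. It was lower in the library labelled knockout, but 52.5% of the wild-type level remained there, and the table does not show which exons these fragments came from. Of the 10 fibroblast markers 10 were measured, with summed levels of 3481 FPKM in wild type and 3349 FPKM in knockout. The endothelial, epithelial, erythroid and skeletal muscle lists had 1 measured marker each. In the erythroid list 4 of 5 markers were listed at 0 in both libraries, and in the skeletal muscle list 3 of 6. Neural markers had 4 of 6 measured, with summed levels of 18.4 FPKM in wild type and 20.3 FPKM in knockout. The 16 macrophage markers, all measured, summed to 1319 FPKM in wild type and 828 FPKM in knockout, of which the joined lysozyme row (Lyz2) held 979 and 572 FPKM. Without that row, left out after the data were seen, the sums were 339.6 and 255.9 FPKM. Of the 16 ratios 14 were below 0, where 63.1% of all measured genes were, and 2 were past 1.5-fold lower, where 1.23% were. The 16 markers had a median of -0.32, against -0.05 for all measured genes, and a range from -0.85 (C1qb) to 0.21 (Aif1). Their part in any difference given here was not tested. In bulk RNA fewer cells of a type and less RNA per cell cannot be told apart.

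The deposited values rise in steps at low levels, and a single fragment raised FPKM 1.61 times more in the knockout than in the wild-type library. With transcript lengths the steps correspond to about 18500000 fragments for the knockout and 29700000 for the wild-type library. Fragment numbers and counting intervals below rest on this estimate, which was added after the data were seen. They cover counting error only, and sequenced fragments are not independent molecules.

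Cdkn2a and Cdkn2b lie next to each other on chromosome 4 but were listed at very different levels, and Cdkn1a was the highest member, so the upstream bases of their starts are shown. The sequences are the 250 bases before each start in RefSeq on GRCm38.p6, written 5′ to 3′ on the gene's strand. The reads were aligned to an older build, and the positions apply only to GRCm38.p6. Capitals mark matches on either strand to GGGCGG, the GC box bound by SP1, to CAGACA, which holds the SMAD core, or to TGACGTCA, the cyclic AMP response element. The E2F site TTTCGCGC was also searched. None of these motifs overlapped another in the windows shown. Cdkn2b lies on the minus strand at chr4:89311033-89311282. Cdkn2a has 2 starts on the minus strand, of which the nearer to Cdkn2b, at chr4:89294620-89294869, is 16413 bases from the Cdkn2b start and is the start of the ARF transcript. The other, at chr4:89282193-89282442, is 28840 bases from the Cdkn2b start and is that of the p16 transcript. Cdkn1a has 2 listed starts on the plus strand, and the one at chr17:29093519-29093768 is shown because it holds the GC boxes.
Cdkn2b: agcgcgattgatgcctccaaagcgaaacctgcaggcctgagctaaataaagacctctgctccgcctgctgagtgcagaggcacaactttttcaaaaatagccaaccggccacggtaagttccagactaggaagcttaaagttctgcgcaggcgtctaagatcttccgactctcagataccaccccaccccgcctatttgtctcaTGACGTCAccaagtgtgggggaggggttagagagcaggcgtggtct
Cdkn2a, ARF start: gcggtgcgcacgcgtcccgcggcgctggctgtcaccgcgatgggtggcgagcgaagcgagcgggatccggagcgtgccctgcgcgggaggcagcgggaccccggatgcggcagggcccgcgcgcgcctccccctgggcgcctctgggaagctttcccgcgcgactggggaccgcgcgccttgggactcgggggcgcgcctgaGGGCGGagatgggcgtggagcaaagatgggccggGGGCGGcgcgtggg
Cdkn2a, p16 start: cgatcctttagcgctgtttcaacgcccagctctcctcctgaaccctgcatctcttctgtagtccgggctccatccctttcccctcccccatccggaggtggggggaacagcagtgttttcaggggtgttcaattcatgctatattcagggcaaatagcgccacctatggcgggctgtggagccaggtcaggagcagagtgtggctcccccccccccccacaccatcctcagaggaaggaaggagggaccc
Cdkn1a: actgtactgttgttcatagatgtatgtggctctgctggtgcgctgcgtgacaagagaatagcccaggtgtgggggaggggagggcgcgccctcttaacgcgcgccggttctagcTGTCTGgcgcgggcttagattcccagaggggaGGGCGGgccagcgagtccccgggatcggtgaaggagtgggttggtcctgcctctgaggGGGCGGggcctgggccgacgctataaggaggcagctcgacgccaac
The windows differed in base composition. The ARF window had 78.4% G and C and 40 CpG dinucleotides, the p16 window 60.0% and 7, the Cdkn2b window 53.6% and 12, and the Cdkn1a window 64.8% and 19, against medians of 52.4% and 6 over 32851 windows of the same length. The ARF window held 2 GC boxes, a motif found in 32.7% of all windows, and the p16 and Cdkn2b windows held none. The Cdkn1a window shown held 2, which is why it was shown, whereas the other Cdkn1a start had 0 GC boxes, 54.0% G and C and 2 CpG dinucleotides. Only the Cdkn2b window among the 12 windows of 9 matched members held TGACGTCA, found in 1.55% of all windows. The Cdkn1a window shown and 1 of the Cdkn2c windows each held 1 match to CAGACA, found in 17.1% of all windows. No window of the 9 matched members held TTTCGCGC, found in 0.256% of all windows. Rb1 was the unmatched member, so its upstream bases were not searched. The Bmi1 window had the largest count of GC boxes, with 6 matches, overlapping ones included, and Cdkn2c (its first listed start) and Cdkn2d had 3 each. Of all windows 8.47% held 3 or more. These Bmi1, Cdkn2c and Cdkn2d windows had 70.4%, 77.2% and 63.6% G and C, above the median of 52.4%.

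Cdkn1a and Cdk4 were the highest in both libraries, each among the 301 highest names of the table. A step of 5.29-fold in the wild-type library and 5.75-fold in the knockout library separated Cdk4 from Cdk6. Cdk6, Cdkn2b, Cdkn1b, Cdkn2c, Rb1 and Bmi1 followed between 13.8 and 3.48 FPKM. Below Bmi1 came a step of 10.1-fold in the wild-type library and 7.60-fold in the knockout library to Cdkn2a, with Cdkn2d the lowest. Cdkn2b and Cdkn1b, the 4th and 5th, were 1.03-fold apart in the wild-type library and changed places in the knockout library. The other 8 members kept their place. With 1 library per genotype no spread is known for any of these steps.

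**Figure D1:**
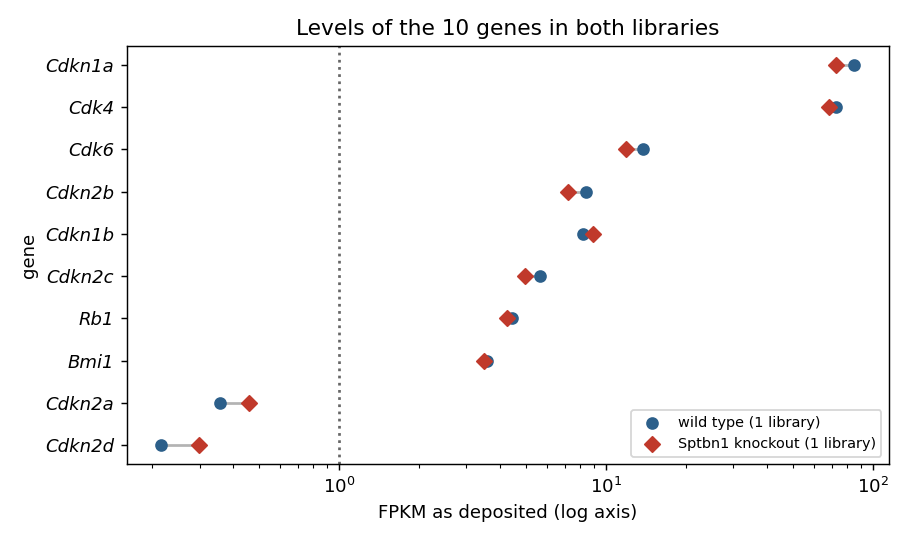
FPKM of the 10 genes (rows) in the wild-type library (circles) and the Sptbn1 knockout library (diamonds) on a log axis, 1 library each, with a dotted line at 1 FPKM. Cdkn1a and Cdk4 lie between 68.5 and 84.9 FPKM, 6 genes lie between 3.48 and 13.8 FPKM, and Cdkn2a and Cdkn2d lie below 0.5 FPKM.

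No member differed by 1.5-fold between the libraries. Of the 8 measured members 0 were past 1.5-fold in either direction, where 2.27% of all measured genes were, and 0 were past 2-fold, where 0.741% were. The 8 ratios ran from -0.22 (Cdkn1a) to 0.11 (Cdkn1b), a span that held 68.5% of all measured genes. Their median was -0.13, against -0.05 for all measured genes. Below 0 were 7 of the 8, as were 63.1% of all measured genes, and 5 of the 8 lay below the median gene. All 8 lay above 0 when both libraries were set to a common FPKM sum, which shifts every ratio by up to 0.47 and puts the median gene at 0.34. With both libraries centred on the median gene, set to a common upper quartile, or set to a common sum without the rows above 1% of either sum, 5 of the 8 were below 0.

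**Figure D2:**
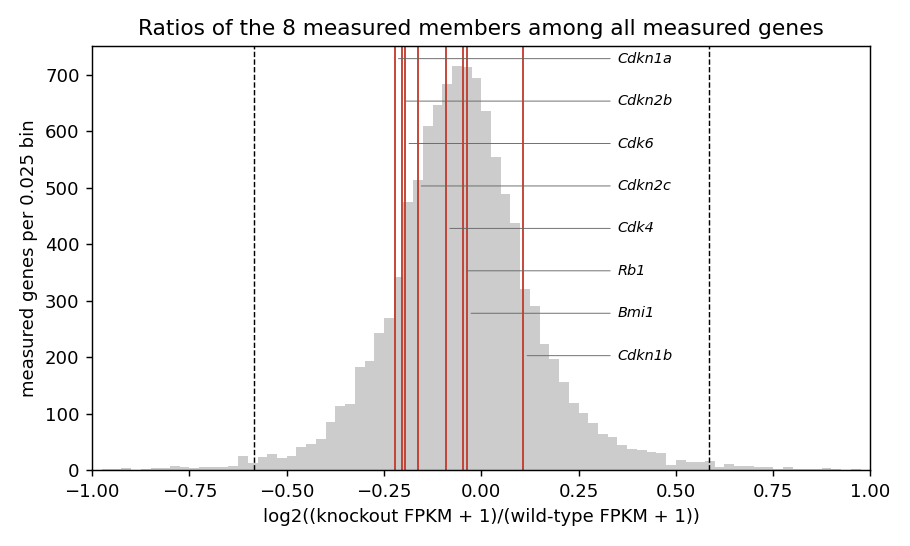
Histogram of the log2 ratio of knockout over wild type (x axis, with 1 FPKM added) for measured genes within 1 log2 unit of 0 (y axis, genes per bin). Red lines mark the 8 measured members and dashed lines 1.5-fold. The members lie inside the bulk of the distribution, from -0.22 to 0.11.

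Of the Cip/Kip genes among the members, Cdkn1a was by far the higher. This p53 target and brake on CDK2 was listed at 84.9 FPKM in wild type and 72.6 FPKM in knockout, a log2 ratio of -0.22, and 14.6% of measured genes had a lower ratio. It ranked 277th in the knockout and 243rd in the wild-type library. At least about 1822 wild-type and 969 knockout fragments lay behind these values, which gives a counting interval of -0.34 to -0.11 for the ratio without the added 1 FPKM. Cdkn1b, whose protein p27 holds quiescent cells in arrest, was at 8.21 FPKM in wild type and 8.93 FPKM in knockout, a log2 ratio of 0.11. It was the 1 measured member above 0. Its counting interval, from about 536 wild-type and 362 knockout fragments, was -0.07 to 0.32 and held 0. Cdkn1a thus made up 89.0% of the sum of Cdkn1a and Cdkn1b in the knockout and 91.2% in the wild-type library. Cdkn1c, another gene of this family, is not among the members and was not summed. The Cdkn1a level was 8.13 times that of Cdkn1b in the knockout and 10.3 times in the wild-type library.

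The INK4 level came almost wholly from Cdkn2b and Cdkn2c. Cdkn2b, which encodes p15, was at 8.44 FPKM in wild type and 7.20 FPKM in knockout, a log2 ratio of -0.20. Cdkn2c, which encodes p18, was at 5.67 FPKM in wild type and 4.95 FPKM in knockout, a log2 ratio of -0.16. In both the knockout library was the lower, to 85.3% and 87.4% of the wild-type level. Counting intervals were -0.51 to 0.06 for Cdkn2b and -0.60 to 0.20 for Cdkn2c, both holding 0. The level of Cdkn2b was 1.45 times that of Cdkn2c in the knockout and 1.49 times in the wild-type library.

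Cdkn2a and Cdkn2d were below the measured limit in both libraries. Cdkn2a, which encodes both p16 and ARF from the 2 starts shown above, was at 0.357 FPKM in wild type and 0.458 FPKM in knockout. These values correspond to about 7 wild-type and 6 knockout fragments, so the knockout value was higher in FPKM while its estimated fragment number was not. The counting interval, -1.38 to 2.26, excludes neither a lower nor a higher level at this depth. One FPKM value covers the whole gene and does not separate p16 from ARF. Cdkn2d, which encodes the INK4 protein p19, was at 0.216 FPKM in wild type and 0.298 FPKM in knockout, about 8 wild-type and 7 knockout fragments, with a counting interval of -1.20 to 2.15. Together with Cdkn2b and Cdkn2c the INK4 genes summed to 14.7 FPKM in wild type and 12.9 FPKM in knockout. Cdkn2a made up 2.43% of the wild-type sum and 3.55% of the knockout sum, and Cdkn2b 57.5% and 55.8% in the same order. Cdkn2b was listed at 15.7 times the level of its neighbour Cdkn2a in the knockout library and 23.7 times in the wild-type library. No 50-base window of Cdkn2a transcripts occurred in transcripts of another gene, Cdkn2b included, and the same held for Cdkn1b, Cdkn2b, Cdkn2c and Cdkn2d.

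**Figure D3:**
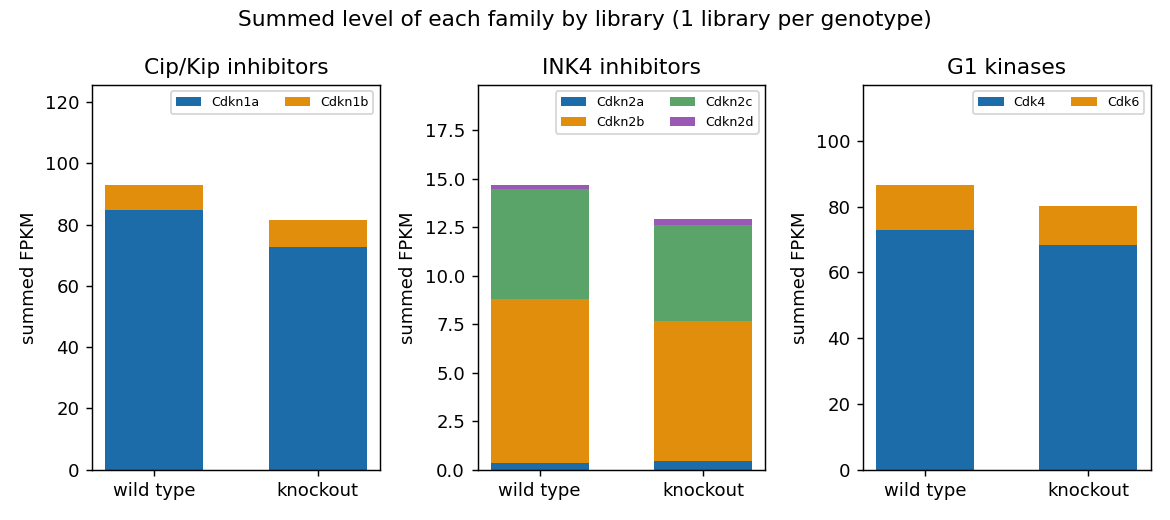
Stacked bars of summed FPKM (y axis, from 0) for the Cip/Kip inhibitors, the INK4 inhibitors and the G1 kinases in the wild-type and knockout libraries, with 1 colour per gene and a separate scale in each panel. The Cip/Kip panel holds Cdkn1a and Cdkn1b only. Cdkn1a makes up most of the first sum, Cdkn2b and Cdkn2c nearly all of the second and Cdk4 most of the third, in both libraries.

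Cdk4 outweighed Cdk6 among the kinases. Cdk4 was at 72.9 FPKM in wild type and 68.5 FPKM in knockout, a log2 ratio of -0.09, close to the median gene at -0.05. Cdk6 was at 13.8 FPKM in wild type and 11.9 FPKM in knockout, a log2 ratio of -0.19, with 18.3% of measured genes lower. Counting intervals were -0.16 to -0.02 for Cdk4 and -0.28 to -0.14 for Cdk6, both below 0 on the deposited scale. Cdk4 supplied 85.2% of the kinase sum in the knockout and 84.1% in the wild-type library. The 6 inhibitors together were listed at 1.18 times the level of both kinases in the knockout library and 1.24 times in the wild-type library. Of the 50-base windows of Cdk4 transcripts 17.0% also occurred in transcripts of other genes, with Tspan31 holding more of them than any other gene, and fragments from those windows cannot be assigned to 1 gene. The share was 3.32% for Cdk6.

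Rb1 and Bmi1 were the members nearest to equality. Rb1, the pocket protein gene whose product is the target of CDK4 and CDK6, was at 4.44 FPKM in wild type and 4.27 FPKM in knockout (log2 ratio -0.05). Bmi1, a Polycomb repressor of the Cdkn2a locus, was at 3.59 FPKM in wild type and 3.48 FPKM in knockout (log2 ratio -0.04). Both were lower in FPKM but ranked slightly higher in the knockout library, 6370th against 6387th for Rb1 and 7202nd against 7259th for Bmi1. Counting intervals held 0, at -0.25 to 0.14 for Rb1 and -0.30 to 0.20 for Bmi1. The level of Bmi1 was 7.60 times that of Cdkn2a in the knockout and 10.1 times in the wild-type library. Only about 6 knockout and 7 wild-type fragments lay behind the Cdkn2a values, so counting error does not separate these 2 multiples. Windows shared with other genes made up 11.96% for Rb1, 16.7% for Bmi1 and 8.49% for Cdkn1a.

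**Figure D4:**
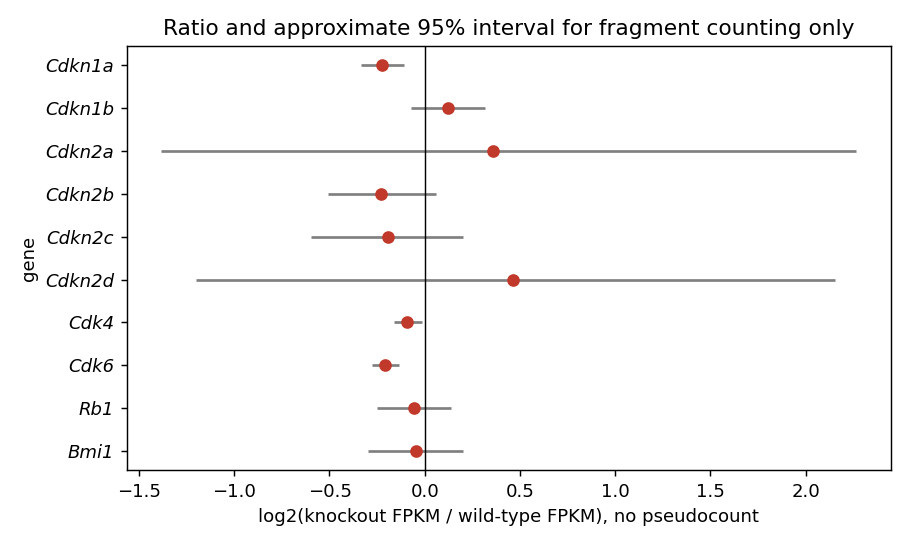
Log2 ratio of knockout over wild-type FPKM without a pseudocount (points, x axis) and its approximate 95% interval for fragment counting (lines) for each of the 10 genes (rows). The intervals of Cdkn1a, Cdk4 and Cdk6 lie below 0, those of the other 7 genes cross it, and those of Cdkn2a and Cdkn2d are the widest.

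A p-value below 0.05 stood beside 3 of the 8 measured members in the authors' deposited table, where 5.60% of all measured genes did. These were Cdkn1a (0.015681 in the authors' deposited table), Cdk6 (0.018066) and Cdkn2b (0.042481), all lower in the knockout library, where 3.59% of measured genes were called in that direction. The p-values of the other members in the authors' deposited table ran from 0.570577 for Cdk4 to 0.859114 for Bmi1. Cdkn2b and Cdkn2c had similar ratios, -0.20 and -0.16, yet 0.042481 and 0.613418 in the authors' deposited table. All these p-values rest on 1 library of each genotype and so cover no variation between cultures. No correction for the number of genes was applied to them here. They also differ from the counting intervals, which were -0.51 to 0.06 for Cdkn2b and -0.16 to -0.02 for Cdk4.

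Genes around the members were past 1.5-fold in 4.32% of cases, against 2.27% of all measured genes, and most of these belonged to the secreted factors. At a mean of 5 FPKM or more the shares were 2.30% and 2.47%. The lists were chosen with earlier results of these data known. The 9 pathway lists held 139 measured genes, of which 1 (0.719%) was past 1.5-fold higher, where 1.04% of all measured genes were, and 5 (3.60%) past 1.5-fold lower, where 1.23% were. Their median ratio was -0.06, against -0.05 for all measured genes. Below 0 lay 91 of the 139 (65.5%), near the 63.1% of all measured genes. One list gene, Cdk1, was not matched to a row and was not analysed here.

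G1 cyclins and their kinases, the partners of the members, had 11 measured genes, 0 past 1.5-fold and a median ratio of 0.00. The D cyclins, which activate CDK4 and CDK6, had log2 ratios of -0.05 (Ccnd1), -0.08 (Ccnd2) and -0.08 (Ccnd3). Ccnd2 was the highest of the 3, at 37.1 FPKM in wild type and 35.2 FPKM in knockout. Cdk2, the target of p21 and p27, was at 4.90 FPKM in wild type and 5.78 FPKM in knockout (0.20). Ccnh, the cyclin of the CDK-activating kinase, had the lowest ratio, -0.25. Counting intervals held 0 for Cdk2 (-0.02 to 0.50) and Ccnh (-0.64 to 0.01) but not for Ccnd2 (-0.13 to -0.02).

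Pocket proteins, E2F, DP and DREAM genes held the 1 pathway gene past 1.5-fold higher, Rbl1. Rbl1, which encodes the pocket protein p107, was at 0.786 FPKM in wild type and 1.89 FPKM in knockout, a log2 ratio of 0.70. It counted as measured only through the knockout library, since its wild-type level was below 1 FPKM, so its call supports nothing about the list. About 109 wild-type and 163 knockout fragments lay behind these values, with a counting interval of 0.91 to 1.63 for the ratio without the added 1 FPKM. Its relative Rbl2, for p130, was at 5.23 FPKM in both libraries (0.00), and Rb1 itself was at -0.05. E2f4, an E2F that binds p107 and p130, was at 3.95 FPKM in wild type and 2.42 FPKM in knockout (-0.53). Without the added 1 FPKM its ratio was -0.71, past 1.5-fold, with a counting interval of -1.10 to -0.33. E2f1 was at -0.20 and Lin37, a DREAM subunit, at -0.33. Counting intervals of both held 0, at -0.49 to 0.01 for E2f1 and -0.84 to 0.03 for Lin37. Of the 14 measured genes 9 (64.3%) were below 0, against 63.1% of all measured genes, with a median of -0.07.

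Targets of E2F and genes of mitosis had 18 measured genes, 0 past 1.5-fold, 10 above and 8 below 0, and a median ratio of 0.01. The share below 0 was 44.4%, against 63.1% of all measured genes. Tk1, a thymidine kinase of S phase, was at 6.49 FPKM in wild type and 8.02 FPKM in knockout (0.27). The proliferation marker Mki67 was at 29.6 FPKM in wild type and 34.4 FPKM in knockout (0.21), and the licensing factor gene Cdt1 was at -0.18. The counting interval of Cdt1, -0.60 to 0.12, held 0. Those of Tk1 (0.02 to 0.59) and Mki67 (0.17 to 0.26) did not.

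Polycomb genes had 19 of 22 measured, 0 past 1.5-fold and a median ratio of -0.06. Below 0 were 14 (73.7%), against 63.1% of all measured genes. Ezh2, the histone H3 methyltransferase, was at 7.23 FPKM in wild type and 8.32 FPKM in knockout (0.18). Its partner Eed was at 11.3 FPKM in wild type and 8.78 FPKM in knockout (-0.34). The Bmi1 relatives Pcgf5 and Pcgf2 were at -0.36 and -0.20, and Pcgf2 was listed above Bmi1 in both libraries, at 10.9 FPKM in wild type and 9.35 FPKM in knockout.

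Genes that control the inhibitors also had 0 genes past 1.5-fold. Transcriptional regulators had 17 of 20 measured and a median of -0.06, with Myc, which represses Cdkn1a and Cdkn2b, at 7.60 FPKM in wild type and 5.07 FPKM in knockout (-0.50). Twist1 was at -0.28 and Foxo1 at -0.25. Genes of inhibitor protein turnover had 14 measured and a median of -0.04. Skp2, the receptor of the ubiquitin ligase for p27, was at 7.66 FPKM in wild type and 6.79 FPKM in knockout (-0.15). Its cofactor gene Cks1b was at 0.16, Rnf123, of another ligase for p27, at -0.35 and Ubac1, the partner of Rnf123, at -0.18. Counting intervals held 0 for Skp2 (-0.43 to 0.08) and Ubac1 (-0.73 to 0.22) but not for Cks1b (0.01 to 0.32) or Rnf123 (-0.82 to -0.22). In the ARF and p53 arm Trp53 was at 34.1 FPKM in wild type and 32.7 FPKM in knockout (-0.06), Mdm2 at -0.02, Mdm4 at -0.09 and Huwe1 at -0.07. Npm1, a nucleolar protein gene whose product binds ARF, was at 46.9 FPKM in wild type and 64.3 FPKM in knockout (0.45), with a counting interval of 0.34 to 0.57. Of its 50-base windows 24.3% also occurred in transcripts of other genes.

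Of 10 chromatin and lysosome markers of senescence 0 were past 1.5-fold, and the median ratio was -0.12. Below 0 were 7 (70%), against 63.1% of all measured genes. Lmnb1, a lamin gene that senescent cells lose, was at 5.72 FPKM in wild type and 6.52 FPKM in knockout (0.16). Glb1, the gene of the lysosomal β-galactosidase used to stain senescent cells, was at 8.67 FPKM in wild type and 7.03 FPKM in knockout (-0.27). The counting interval of Lmnb1, -0.02 to 0.40, held 0, and that of Glb1, -0.51 to -0.09, did not. Hmga2 was at -0.09, and the chromatin protein genes Hmgb1 (-0.43) and Hmgb2 (0.35) lay on opposite sides, and 22.7% of the 50-base windows of Hmgb1 also occurred in transcripts of other genes. Secreted senescence-associated factors held all 5 pathway genes past 1.5-fold lower, 16.1% of 31 measured genes, where 1.23% of all measured genes were. These were Mmp13 (-1.24), Cxcl10 (-1.10), Mmp3 (-1.04), Mmp10 (-1.01) and Angptl4 (-0.72), the last 2 chosen after their values were seen. Cxcl10, Mmp10 and Angptl4 averaged 2.21, 2.75 and 2.66 FPKM over both libraries. The list was chosen with earlier results of these data known, so the 16.1% supports nothing about it as a set. The list had 25 of 31 (80.6%) below 0, against 63.1% of all measured genes. Its median was -0.28, beside the median of -0.32 for the macrophage markers. Their part in it was not tested. The markers with the largest differences were C1qb (-0.85), the joined lysozyme entry listed for Lyz2 (-0.77) and C1qc (-0.56), whereas Tyrobp (-0.09) and Mrc1 (-0.05) lay near the median gene and Ptprc (0.01) and Aif1 (0.21) above 0, these 4 chosen after their values were seen.

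**Figure D5:**
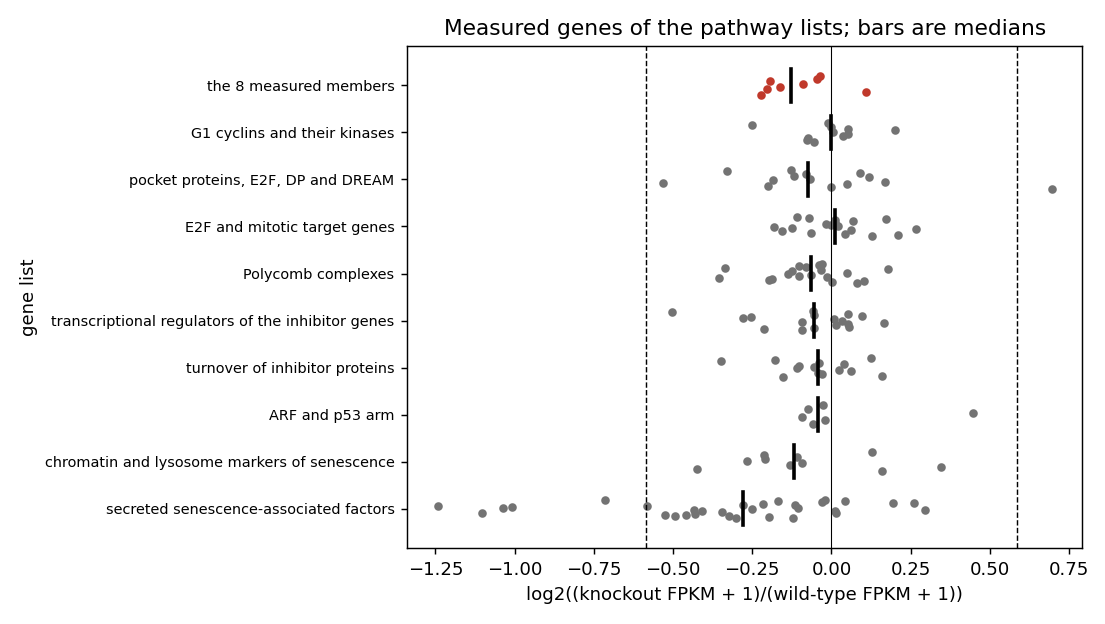
Log2 ratio of knockout over wild type (x axis, with 1 FPKM added) for the measured members (red) and the measured genes of 9 pathway lists (grey), with black bars at the medians and dashed lines at 1.5-fold. Rbl1 is the 1 gene past the right dashed line, and the 5 genes past the left line belong to the secreted factors.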

How the data were processed

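One library per genotype was analysed. Per the series' design text and the submitters' processing notes, reads were checked with FastQC and Trimmomatic, aligned to NCBI mouse build 37.2 with TopHat2 2.0.10 and quantified with Cufflinks. Versions of the other tools were not given in the sources used here. The authors deposited 1 table of FPKM per gene. They also deposited p-values of their Cuffdiff2 comparison. The knockout column is named for Sptbn1. The other column's header carries both a wild-type and a -/- mark and was taken as wild type from its name.

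Ratios were computed with Python 3.11.15 and pandas 2.3.3 with a pseudocount of 1 FPKM, which understates differences of low genes. The simulated data used to check them held changes far larger than those of the members, so only the arithmetic was checked. No test was possible with 1 library per genotype. The members and lists were chosen with earlier results of these data known. Named genes were all members, Sptbn1, 13 partners and up to 3 measured genes with the largest ratios per pathway list and among macrophage markers. Symbols were matched to RefSeq names (207 of 208 list entries), and older names were used where needed (Sptbn1 is listed as Spnb2). Fragment numbers took low rows of single-transcript genes, GENCODE vM21 lengths and an assumed fragment length of 200 bases. Where RefSeq-linked transcripts differed in length the shortest was used, and intervals are exact binomial at 95%.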

Additional observations from a re-analysis of the deposited data

How the results depend on the processing

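The count of 0 members past 1.5-fold held under every alternative run: a pseudocount of 0.1 FPKM, a common FPKM sum, centring on the median gene, a common upper quartile, summed rows of repeated names, no filter on low values, a mean of 5 FPKM or more and, added after the data were seen, a common sum without the 12 rows above 1% of either sum. The share of all genes counted that were past 1.5-fold ran from 1.81% with no filter to 9.65% on a common FPKM sum. A count of 0 among so few members therefore says little about them. The median ratio of the members became 0.29 on a common FPKM sum, where the median of all measured genes became 0.34, and it stayed within 0.1 of -0.13 elsewhere. Of 8 measured members 5 lay below the median gene in the deposited scale and 6 on a common sum. Pathway genes past 1.5-fold numbered 6 of 139 (4.32%, against 2.27% of all measured genes). They numbered 8 with a pseudocount of 0.1 FPKM (5.76%, against 4.38%) and 15 on a common FPKM sum (10.8%, against 9.65%). At a mean of 5 FPKM or more they were 2 of 87 (2.30%, against 2.47%), where fewer genes were counted. By rank within each library 5 members were lower in the knockout library, against 7 by FPKM. With a pseudocount of 0.1 FPKM the ratios of 2 members moved by more than 0.1, and those of 8 did not. No paired analysis was possible because each genotype had 1 library. Depth limits Cdkn2a and Cdkn2d, at fewer than 10 estimated fragments each.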
